A study of Homo sapiens with 6 samples.

Results

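Sorafenib is an oral kinase inhibitor used against liver cancer, and the genes described here encode 9 kinases that it is known to inhibit: BRAF, ARAF, KDR, FLT1, PDGFRB, KIT, RET, FGFR1 and DDR2. Every probe that the platform annotation assigns to 1 of these symbols was taken, which gave 13 of the 47323 probes on the array, for 8 of its 20046 named genes, and BRAF was not analysed here. RNA came from HepG2, an established line grown from a human liver tumour and labelled as hepatocellular carcinoma. The control group held 3 arrays of cells given the solvent DMSO for 24 h, and the sorafenib group held 3 arrays of cells given the drug for 24 h at a labelled 3 mM. Micromolar doses are usual in culture, and nothing in the files tests the labelled unit. Whether the replicates were separate cultures is not labelled, so the p-values rest on array-to-array spread that may be technical.

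ARAF and BRAF are serine/threonine kinases that carry the signal from RAS to MEK and ERK. The other members are receptors with a tyrosine kinase domain inside the cell: KDR and FLT1 bind vascular endothelial growth factors, PDGFRB binds platelet-derived growth factors, KIT binds stem cell factor, RET acts with a co-receptor for ligands of the GDNF family, FGFR1 binds fibroblast growth factors and DDR2 binds collagen. In liver, the VEGF receptors are known from sinusoidal endothelium and PDGFRB from stellate cells, while hepatocytes are known to signal through RAF kinases and FGFR4. The drug acts on the kinase proteins, and the arrays measured only their transcripts.

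The promoters of 3 members are shown because they stand for the detection patterns found: PDGFRB was detected only with sorafenib, ARAF on every array and KDR on none. Each is the RefSeq window of GRCh38.p14 from 250 bases before to 50 after the gene's start, 5′ to 3′ on the gene's strand. Capitals mark the CCAAT box (CCAAT) and the GC box (GGGCGG), searched on both strands, and these matches share no letters with each other.
PDGFRB, chr5:150155796-150156095, minus strand: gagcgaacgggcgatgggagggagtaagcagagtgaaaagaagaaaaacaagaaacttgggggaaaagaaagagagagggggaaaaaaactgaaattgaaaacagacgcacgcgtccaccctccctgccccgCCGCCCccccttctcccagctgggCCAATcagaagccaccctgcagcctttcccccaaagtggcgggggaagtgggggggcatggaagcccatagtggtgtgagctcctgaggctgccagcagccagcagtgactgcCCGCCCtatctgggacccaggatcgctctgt
ARAF, chrX:47560955-47561254, plus strand: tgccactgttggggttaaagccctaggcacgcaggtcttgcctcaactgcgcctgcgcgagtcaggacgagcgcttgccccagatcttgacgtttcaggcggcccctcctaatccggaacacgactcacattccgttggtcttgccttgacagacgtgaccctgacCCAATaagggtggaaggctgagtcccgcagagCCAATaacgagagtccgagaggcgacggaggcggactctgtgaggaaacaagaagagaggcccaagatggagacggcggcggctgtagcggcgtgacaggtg
KDR, chr4:55125546-55125845, minus strand: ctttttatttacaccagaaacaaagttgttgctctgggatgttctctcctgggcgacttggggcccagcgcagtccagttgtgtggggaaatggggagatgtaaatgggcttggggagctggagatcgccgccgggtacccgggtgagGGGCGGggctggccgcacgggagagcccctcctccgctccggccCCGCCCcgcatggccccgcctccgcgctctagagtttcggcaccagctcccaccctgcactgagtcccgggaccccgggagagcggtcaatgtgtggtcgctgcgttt
The PDGFRB window held 1 CCAAT box and 2 GC boxes, the ARAF window 2 CCAAT boxes and no GC box, and the KDR window 2 GC boxes and no CCAAT box. Over all 35116 windows of the table, 34.6% held a CCAAT box and 45.0% a GC box. CpG dinucleotides numbered 11 in the PDGFRB window, 23 in that of ARAF and 22 in that of KDR, where the median over all windows was 14. The table held 10 windows for 7 of the member genes. Motifs bound by factors that respond to ERK were also searched: the ETS core CGGAAG was in 0 of the 10 windows (19.5% of all windows), the EGR1 motif GCGGGGGCG was in 1 window of RET and that of FLT1 (5.07% of all), and the AP-1 motif TGACTCA was in 1 window of DDR2 (4.95% of all). A match is a description of the letters, not evidence of binding.

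Detection separated the members. A probe counted as detected on an array where its deposited detection p-value was under 0.05, a limit that 5% of negative controls pass by construction. Of the 13 probes, 1 was detected on all 6 arrays, 2 on the 3 sorafenib arrays alone, 1 on a single control array and 9 on none. Over the 78 pairs of a probe and an array, 13 were detected. The lowest intensity that counted as detected lay between 130.3 and 159 on the 6 arrays, and the 10 probes that failed the filter had intensities from 85.4 to 156.

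**Figure D1:**
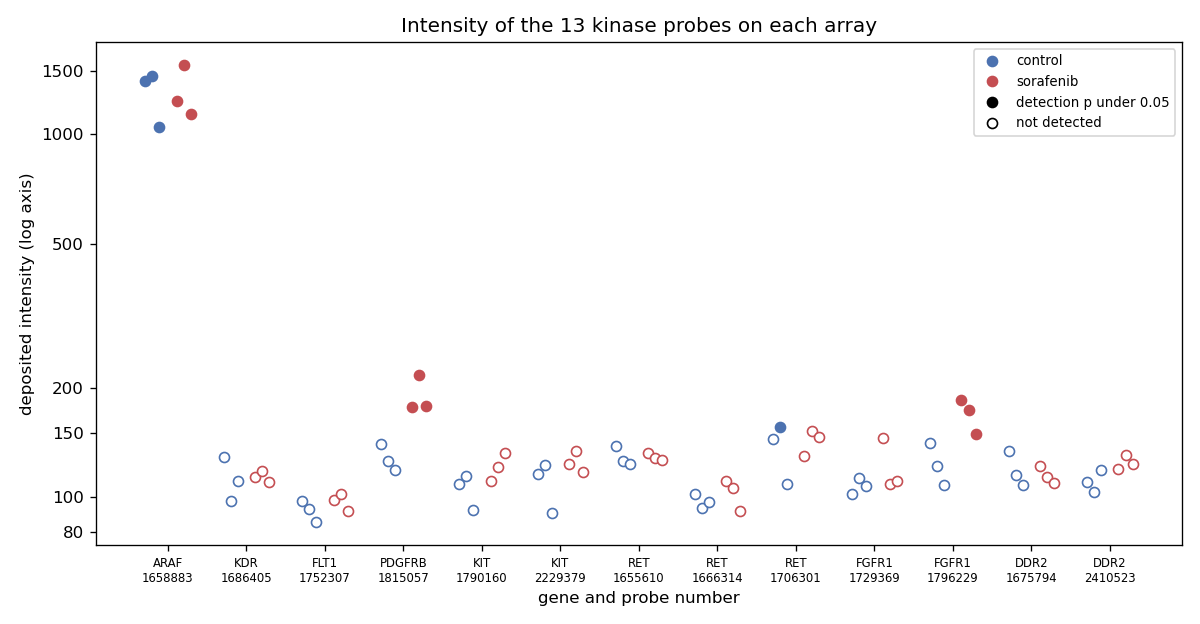
Deposited intensity (log axis) of the 13 kinase probes on the 3 control and the 3 sorafenib arrays, with filled points where the detection p was under 0.05. ARAF lies between 1049 and 1552 on every array, while PDGFRB and 1 of the FGFR1 probes are filled only with sorafenib and the other receptors stay near the background.

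ARAF, the RAF kinase gene that could be measured, had intensities of 1408, 1452 and 1049 on the 3 control arrays and of 1234, 1552 and 1139 on the 3 sorafenib arrays. The groups overlapped, and the detection p was listed at 0 on each array. After background correction and quantile normalization its log2 level was 10.27 ± 0.07 with DMSO and 10.20 ± 0.01 with sorafenib (SD, n = 3 arrays each). The difference, sorafenib minus control, was -0.07 ± 0.08 on the log2 scale (SE; limma, adjusted p = 0.594), with a 95% interval from -0.25 to 0.11. The transcript of this drug target was therefore not shown to change.

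PDGFRB, the receptor for platelet-derived growth factor B, was the member with the clearest difference. Its intensities were 140.0, 126 and 119 on the control arrays and 178, 217 and 178 on the sorafenib arrays. All 3 sorafenib arrays lay above all 3 control arrays. The detection p was 0.123, 0.282 and 0.142 in the control group and 0.00649, 0.00130 and 0.00390 in the sorafenib group, so the transcript was above background only with the drug, also at a detection p under 0.01. Normalized log2 levels were 5.33, 5.09 and 5.31 with DMSO and 6.18, 6.59 and 6.44 with sorafenib. The gene rose by 1.16 ± 0.13 on that scale (SE; limma, adjusted p = 0.00354, and 0.000389 to 0.0184 over 14 alternatives). The probe passed the filter through its sorafenib arrays alone, so it had to be higher there. The alternatives refit the same arrays, so their range is no further support for the rise. Since the control level was not told apart from background, the fold has only a lower limit, and that limit depends on the background correction. With each control array set to the lowest level detected there, PDGFRB was at least 1.70-fold higher with sorafenib on the background-corrected scale. The uncorrected mean intensities were 128 and 191. The log2 difference was 0.45 without the correction and 0.50 on the values the authors processed, with bounds of at least 1.22-fold and 1.25-fold. With the background estimated from the regular probes in place of negative controls and an offset of 50, it was 0.61, with a bound of at least 1.31-fold.

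FGFR1, a receptor for fibroblast growth factors, had 2 probes that did not give the same picture. Probe 1796229 had intensities of 141, 122 and 108 on the control arrays and of 186, 174 and 149.6 on the sorafenib arrays. It was detected on no control array and on all 3 sorafenib arrays, with a detection p of 0.00260, 0.0130 and 0.0390 there, so that 1 sorafenib array passed a limit of 0.01. Its log2 level was 5.13 ± 0.19 with DMSO and 6.00 ± 0.31 with sorafenib (SD, n = 3 each), and the groups did not overlap. The probe rose by 0.87 ± 0.17 on the log2 scale (SE; limma, adjusted p = 0.0203, and 0.00642 to 0.0707 over 14 alternatives), and with the control arrays at their detection limit the level was at least 1.28-fold higher on the background-corrected scale. Like that of PDGFRB, it passed the filter through its sorafenib arrays alone and had to be higher there. The call was lost without control replicate 2 (adjusted p = 0.0707), control replicate 3 (adjusted p = 0.0669) or sorafenib replicate 2 (adjusted p = 0.0573). Without background correction the difference was 0.35, at the larger offset it was 0.49, and on the values the authors processed it was 0.39, with bounds of at least 1.10-fold, 1.13-fold and 1.11-fold.

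Probe 1729369, which the annotation also assigns to FGFR1 but to another transcript record, had intensities of 102, 113 and 107 with DMSO and of 146, 109 and 111 with sorafenib. It was not detected on any array, its groups overlapped, and no fold is given. The highest of its 6 values was on sorafenib replicate 1, which was also the brightest array for the other FGFR1 probe. The rise of FGFR1 therefore rests on 1 of its 2 probes.

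**Figure D2:**
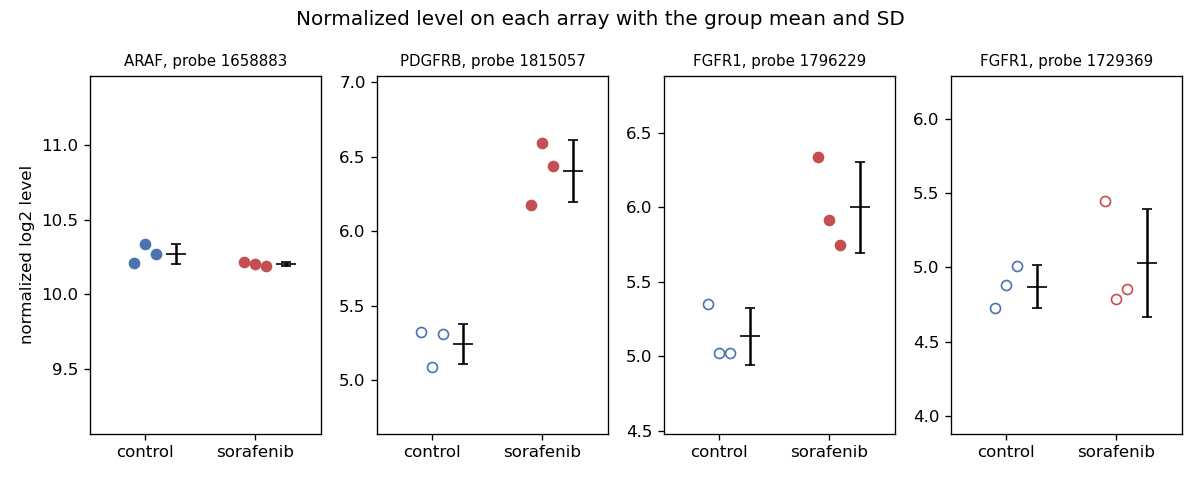
Normalized log2 level of ARAF, PDGFRB and both FGFR1 probes on each of 3 control and 3 sorafenib arrays, filled where detected, with bars for the group mean and SD and an axis of equal span in each panel. PDGFRB and FGFR1 probe 1796229 separate the groups, and ARAF and FGFR1 probe 1729369 overlap.

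The called share over the array gives the scale for these counts. Of the 20120 probes detected on at least 3 of the 6 arrays, 16.7% passed an adjusted p of 0.05 (limma), 7.27% higher and 9.45% lower with sorafenib, 19.2% had all sorafenib arrays above all control arrays, and 19.8% had them all below. That makes 3364 probes, which became 1866, 1498 and 1837 without control replicate 1, 2 or 3 and 1854 and 1463 without sorafenib replicate 1 or 2. Among the members, 2 of the 3 tested probes were called, both upward. Both passed the filter through their sorafenib arrays alone, and a probe that enters in that way had to be higher there, so the count supports nothing about the group. Detection on all 3 sorafenib arrays and no control array was found for 75 of the 47323 probes, or 0.158%, and the opposite pattern for 156, or 0.33%. Of those 75 probes, 64% were called higher with sorafenib, and of the 156 with the opposite pattern 69.9% were called lower.

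The receptors for vascular endothelial growth factor were not measurable in these cells. KDR, the main signalling receptor of VEGFA, had intensities of 129.6, 98.0 and 111 with DMSO and of 114, 118 and 111 with sorafenib. The control arrays included both the highest and the lowest value. FLT1, a high-affinity receptor of the same family, stayed between 85.4 and 102 with a detection p from 0.822 to 0.935. Neither gene was detected on any array, so no fold can be given, and the data do not tell whether either is transcribed at a lower level.

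The stem cell factor receptor KIT was not detected by either of its 2 probes, whose intensities ranged from 92.4 to 132 and from 90.3 to 134. RET, the receptor of GDNF family ligands, had 3 probes. Probe 1706301 had intensities of 145, 156 and 109 with DMSO and of 130.0, 153 and 147 with sorafenib, and the groups overlapped. It was detected on control replicate 2 alone, with a detection p of 0.0351 and of 0.0766 and 0.0597 on sorafenib replicates 2 and 3, and it was detected nowhere at a limit of 0.01. The other RET probes ranged from 123 to 138 and from 91.7 to 111 and were not detected. DDR2, the collagen receptor, was not detected by its 2 probes, which ranged from 108 to 134 and from 104 to 131. Of the 60 pairs of an array and 1 of the 10 failing probes, 1 was detected. In a limma fit over all probes with no filter, 0 of these 10 probes were called (lowest adjusted p = 0.456), and 0 had an unadjusted p under 0.05.

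The RNA carried the liver identity of the line. Of 10 hepatocyte and HepG2 markers, 9 were measured and all 9 were detected, with 2 lower, 0 higher and 7 not called (limma), and a median log2 difference of -0.008. Over all 11542 genes tested, 20% were called, 11.6% lower and 8.44% higher. TF, which encodes the iron carrier transferrin, fell by 0.61 ± 0.10 on the log2 scale (limma, adjusted p = 0.0113), and APOA1, the main apolipoprotein of HDL, fell by 0.47 ± 0.10 (adjusted p = 0.0213). The APOA1 call was lost with median scaling (adjusted p = 0.0777) and without any array other than sorafenib replicate 3 (0.0545 to 0.0776). AFP, APOA2 and TTR, which encode secreted liver proteins, had differences of 0.28, 0.17 and 0.30 with all sorafenib arrays above all controls and were not called. SERPINA1 and FGB, also not called, went the other way, at -0.40 and -0.41. All sorafenib arrays of SERPINA1 lay below all its controls, and its other kept probe was called lower, at -0.47 (limma, adjusted p = 0.0139). Albumin (ALB) differed by -0.01. Of 8 endothelial markers, 2 were detected on any array: PECAM1, which failed the filter, and ESAM, a junction protein. ESAM was detected on all 6 arrays and differed by 0.93 ± 0.28 (limma, adjusted p = 0.0693, and 0.00785 in the fit blocked on replicate number). The summed intensity of the endothelial probes was 1030 to 1442 with DMSO and 1376 to 1902 with sorafenib. Of these 9 probes, that of ESAM was the 1 detected on all arrays. Summed on the log2 scale the endothelial list overlapped, at 46.2 to 48.3 with DMSO and 47.6 to 49.4 with sorafenib. Of 9 markers of mesenchymal and stellate cells, DCN, ACTA2 and RGS5 were detected on any array, and COL1A1, COL1A2, COL3A1, LUM, THY1 and DES on none. ACTA2, the smooth muscle actin gene, fell by 0.65 ± 0.08 (adjusted p = 0.00563), and the summed intensity of this list was 12176 to 14803 with DMSO and 8980 to 11597 with sorafenib, a sum in which ACTA2 is by far the brightest. Summed on the log2 scale the list overlapped, at 85.1 to 86.2 with DMSO and 83.6 to 86.6 with sorafenib. RGS5, a pericyte marker, differed by 0.88 ± 0.35 on its brightest probe (limma, adjusted p = 0.142, and 0.0171 in the fit blocked on replicate number), in the same direction as PDGFRB. The other kept probe of RGS5 differed by 0.47 ± 0.40 (limma, adjusted p = 0.459). The part of these markers in the PDGFRB and FGFR1 results was not tested. In RNA from a whole culture, a change in the share of cells that express a gene and a change in its RNA per cell cannot be told apart.

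No ligand of these receptors was called higher. Of 27 genes named, 14 passed the filter, 3 fell and 0 rose, with a median log2 difference of -0.14, beside 0.00073 over all 11542 genes, of which 20% were called, 8.44% higher and 11.6% lower. At an unadjusted p under 0.05, limma gave 0 ligands higher. FGF17, a ligand of FGF receptors, had log2 levels of 6.85, 7.06 and 6.83 with DMSO and of 6.28, 6.26 and 5.73 with sorafenib, and it fell by 0.82 ± 0.17 (limma, adjusted p = 0.0203). NRTN, neurturin, a ligand that signals through RET, fell by 0.66 ± 0.14 (adjusted p = 0.0232). PDGFC, a platelet-derived growth factor that binds mainly the alpha receptor, fell by 0.52 ± 0.11 (adjusted p = 0.0213). In each of these the groups did not overlap. FGF17 and NRTN missed the threshold without control replicate 1, 2 or 3 (adjusted p = 0.0534 to 0.0705 and 0.0578 to 0.0727). PDGFC missed it without any array other than control replicate 2 (adjusted p = 0.0529 to 0.0584) and with median scaling (0.0720). The number of ligands that fell was therefore 0, 1 and 0 without control replicates 1, 2 and 3. VEGFA, the ligand of KDR and FLT1, differed by 0.03 ± 0.14 (adjusted p = 0.919), a sign that turned without control replicate 1 or sorafenib replicate 3, and KITLG, which encodes stem cell factor, differed by -0.04 ± 0.12 (adjusted p = 0.831), a sign that turned without sorafenib replicate 1. Of the 3 probes of PDGFA, none passed the filter.

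Co-receptors, which present ligands to these kinases, moved in both directions, with 2 of 8 lower and 1 higher and a median of -0.04. Over all genes, 11.6% were called lower and 8.44% higher. KLB, beta-klotho, the partner of FGFR4 for FGF19, had log2 levels of 11.45, 11.15 and 11.49 with DMSO and of 10.05, 10.01 and 10.39 with sorafenib. It fell by 1.22 ± 0.14 (limma, adjusted p = 0.00405, and at most 0.0204 over 15 alternatives), and the groups did not overlap. SDC4, a heparan sulfate proteoglycan that binds FGF, fell by 0.65 ± 0.08 (adjusted p = 0.00399). NRP2, a neuropilin that binds VEGF, rose by 0.64 ± 0.17 on its brightest probe (adjusted p = 0.0456), and its other 3 probes gave 0.40, 0.36 and 0.25 and were not called. That call was lost with median scaling (adjusted p = 0.0712), with no filter (0.0797) and without any array other than sorafenib replicate 3 (0.0781 to 0.127).

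Among other kinases that sorafenib is known to inhibit, and close relatives of the members, 7 of 14 passed the filter, 2 fell and 1 rose, with a median of -0.28. The shares over all genes were 11.6% lower and 8.44% higher. CDK19, a kinase of the Mediator complex, had log2 levels of 11.15, 11.28 and 11.41 with DMSO and of 10.17, 10.23 and 10.33 with sorafenib. It fell by 1.03 ± 0.10 (limma, adjusted p = 0.00209), while its paralog CDK8 differed by 0.01 ± 0.09 (adjusted p = 0.948; CDK8 was chosen for naming after its values were seen). FGFR3 fell by 0.46 ± 0.10 on its brightest probe (adjusted p = 0.0227), with -0.12 on the other probe, and missed the threshold with median scaling (adjusted p = 0.110) and without control replicates 2 and 3 or sorafenib replicates 1 and 2 (0.0639 to 0.0807). FGFR4, the main FGF receptor of hepatocytes, differed by -0.39 ± 0.13 (adjusted p = 0.0969, and 0.0299 in the fit blocked on replicate number). MAP3K20, a stress-activated kinase, rose by 0.43 ± 0.10 (adjusted p = 0.0303), a call kept in 5 of 15 alternatives. It was lost without any array other than sorafenib replicate 1 (adjusted p = 0.0764 to 0.101), and the number of these kinases that fell was 1 without control replicate 2 or 3 or sorafenib replicate 1 or 2. The receptors FLT3, FLT4, PDGFRA, CSF1R and FGFR2 were detected on no array.

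Below the receptors, the cascade from RAS to ERK held calls in both directions. Of 29 genes named, 23 were tested, 3 rose and 5 fell, with a median of 0.02, beside 8.44% higher and 11.6% lower over all genes. MAPK3, which encodes the kinase ERK1, had log2 levels of 11.97, 12.10 and 12.25 with DMSO and of 11.48, 11.37 and 11.46 with sorafenib, and it fell by 0.67 ± 0.10 (limma, adjusted p = 0.00797). Its other probe fell by 0.72. MRAS, a RAS-related GTPase, fell by 0.92 ± 0.12 (adjusted p = 0.00564), and KSR1, a scaffold that holds RAF, MEK and ERK together, fell by 0.73 ± 0.13 (adjusted p = 0.0155). KSR1 missed the threshold when sorafenib replicate 1 or 2 was left out (adjusted p = 0.0502 and 0.0596) or control replicate 2 (0.0572). SHC1, an adaptor between receptors and RAS, rose by 0.58 ± 0.09 on its brightest probe (adjusted p = 0.00852). The other kept probe of SHC1 gave 0.44 ± 0.19 and was not called (limma, adjusted p = 0.165). MAP2K1, which encodes MEK1, rose by 0.35 ± 0.07 (adjusted p = 0.0237), and PAQR3, a membrane protein of the Golgi, rose by 0.36 ± 0.09 (adjusted p = 0.0370). MAP2K1 missed the threshold without any of the 6 arrays (adjusted p = 0.0573 to 0.0850) and PAQR3 without any other than control replicate 1 (0.0769 to 0.109), so that 1 cascade gene rose without any array but control replicate 1. With median scaling both calls were lost (adjusted p = 0.168 for MAP2K1 and 0.207 for PAQR3), and with no filter that of PAQR3 (0.0683). MAP2K2, which encodes MEK2, differed by 0.32 ± 0.16 (adjusted p = 0.229). The number that fell was 3 without control replicate 2.

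Genes transcribed in response to ERK, at the end of the pathway, were mostly higher with sorafenib. The list was chosen with earlier results of these data known, so its count is not independent evidence, and 8.44% of all genes were called higher. Of 16 tested, 14 rose and 0 fell, a median of 1.46, and 12 to 13 rose in each fit that left out 1 array. FOS, 1 of the 14, was detected on the 3 sorafenib arrays and no control array. It passed the filter through the sorafenib arrays alone and had to be higher there. The median rests in part on its difference of 1.52, which is not a measured fold (bound of at least 1.54-fold). SPRY4, a feedback inhibitor of receptor tyrosine kinases, had log2 levels of 10.39, 10.39 and 9.67 with DMSO and of 13.27, 13.30 and 12.80 with sorafenib. DUSP6, a phosphatase of ERK, had 9.06, 9.04 and 8.31 against 11.59, 11.68 and 11.38, and DUSP5, its nuclear relative, had 9.43, 9.31 and 7.83 against 11.77, 11.74 and 10.40. In each of these the control array of replicate 3 was the lowest of its group, and so was the sorafenib array of replicate 3. DUSP5 missed the threshold in limma without control replicates 2 and 3 and without sorafenib replicates 1 and 2 (adjusted p = 0.0513 to 0.0839) and with eBayes with trend and robust (0.0558). In the limma fit blocked on replicate number its adjusted p was 0.0032.

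**Figure D3:**
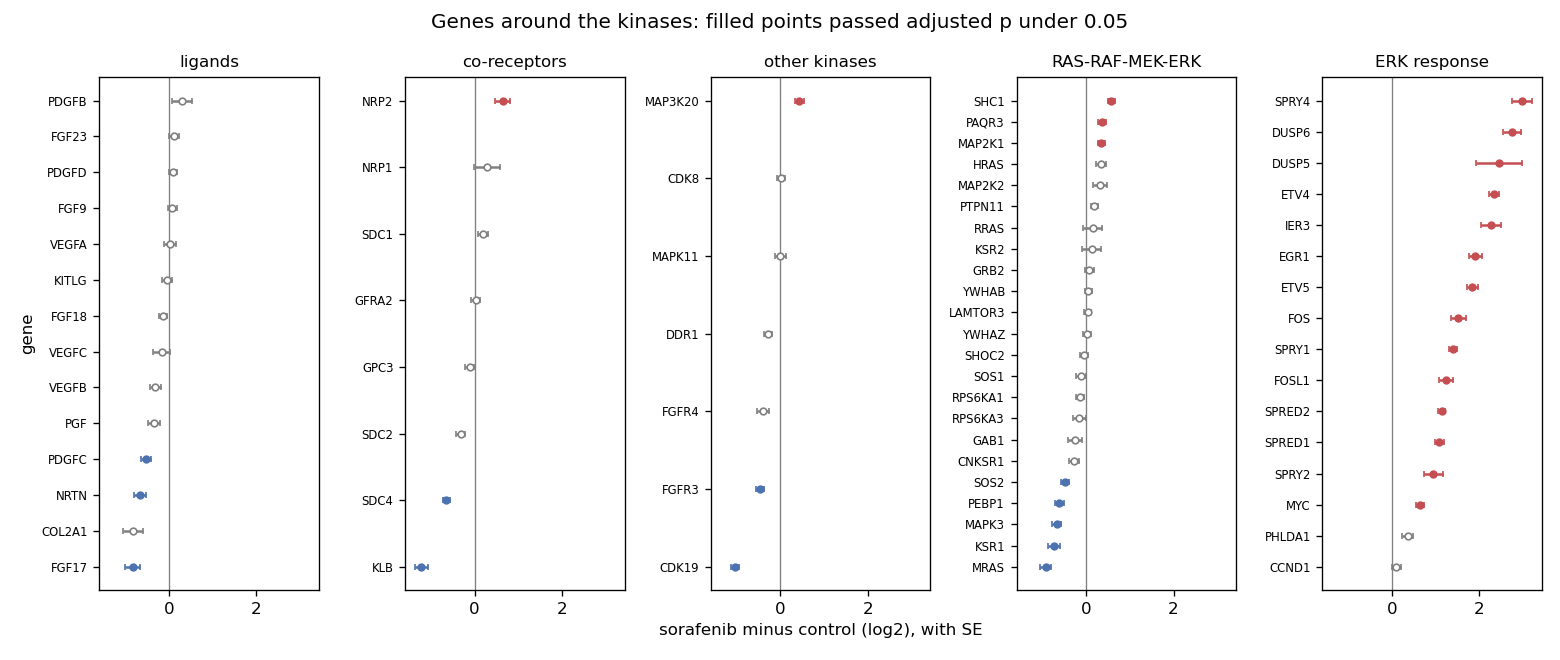
Log2 difference, sorafenib minus control, with its SE for every tested gene of 5 lists around the kinases (ligands, co-receptors, other kinases, the RAS-RAF-MEK-ERK cascade and ERK response genes); filled points passed an adjusted p of 0.05, red higher and blue lower. ERK response genes lie to the right with 14 of 16 filled, while the other lists hold calls on both sides or to the left; FOS was detected on no control array, so its point is not a measured fold.

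The genes whose pattern over the 6 arrays was most like that of a member were found by the root mean square difference of log2 values centred on each gene's own mean. For PDGFRB they were TNFSF4, a TNF family cytokine (0.105), ADORA2B, an adenosine receptor (0.119), and RAPGEF5, a RAP exchange factor (0.129), which differed by 0.99, 1.27 and 1.03 on the log2 scale. For FGFR1 they were SNORD4A (0.0986), MUC13 (0.101) and MRTO4 (0.101). For ARAF they were NDRG3 (0.0146), OXSR1 (0.0169) and CTDNEP1 (0.0204). All 3 genes nearest to PDGFRB were detected on every array, unlike PDGFRB itself.

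**Figure D4:**
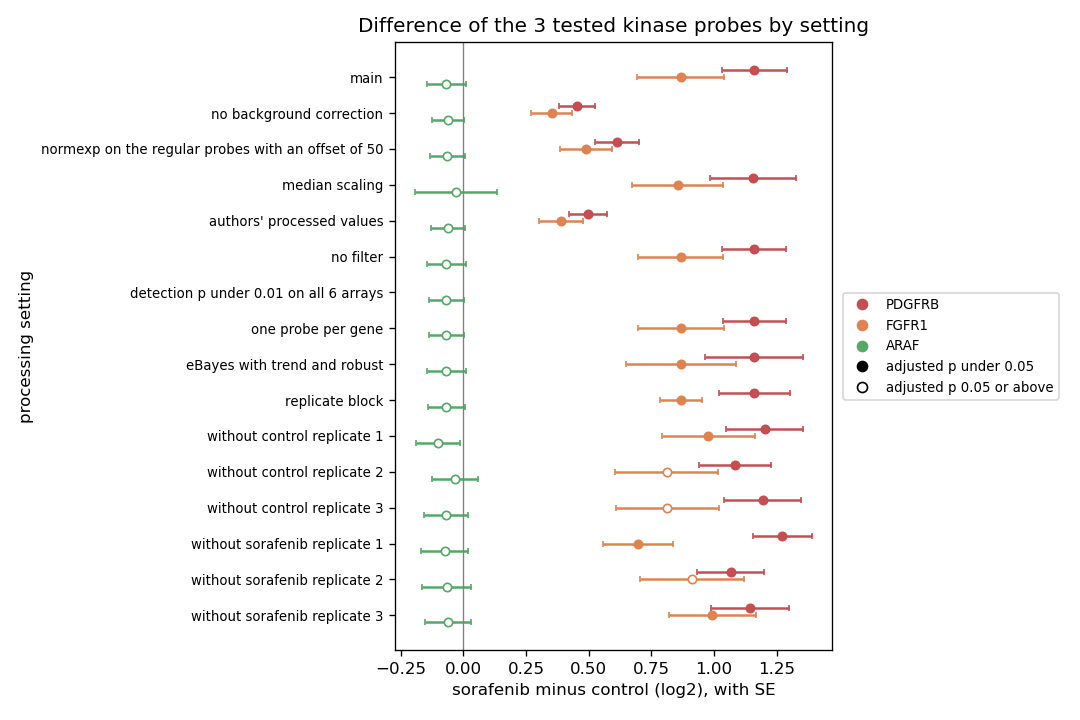
Log2 difference with its SE for PDGFRB, FGFR1 probe 1796229 and ARAF under each processing setting, filled where the adjusted p was under 0.05. PDGFRB is filled wherever it was tested, FGFR1 opens in 3 of the settings that leave out an array, and ARAF stays near 0. For PDGFRB, the settings without background correction give about 0.45 and 0.50, and normexp correction on the regular probes gives about 0.61.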

How the data were processed

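RNA of HepG2 cells was measured on Illumina Expression BeadChips as biotin-labelled cRNA, per the labels' protocols. The authors deposited intensities for each of 47323 probes, with a detection p-value beside each and no normalization, per the file headers. The deposited processed log2 values equal quantile-normalized log2 intensities within 5.00e-07, so they hold no background correction. No source used here names the scanner software.

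Groups came from the titles. Background was corrected with limma's neqc, which inferred the negative controls through the detection p-values (offset 16), then quantile normalization and log2. Probes detected at p under 0.05 on at least 3 of 6 arrays were kept (20120, of 11542 named genes) and fitted with lmFit and eBayes, with two-sided tests, Benjamini-Hochberg adjustment across the kept probes and calls at an adjusted p under 0.05. Errors are moderated SEs. Symbols came from the platform annotation (30113 probes with 1, 8 with several, 17202 with none), of which 30074 matched GRCh38.p14 genes by number and 0 changed. List genes were read from their brightest kept probe. Where a group was detected on no array, a bound set each of its arrays to the higher of its own value and the lowest detected value there.

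Members and lists were chosen with earlier results of these data known. Named list genes are the called ones with the 3 largest rises and falls per list, plus VEGFA, MAP2K1, MAP2K2, MAPK3, FGFR4, KITLG and PDGFA. Another gene of that rule is not reported here. Mean intensity per array was 739 to 1050 and 19440 to 20138 probes were detected per array. Log2 values correlated at 0.989 to 0.994 within groups and 0.977 to 0.986 between them, and the number of arrays limits the precision.

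Replicate numbers come from the titles, which do not say what they mark. Arrays of equal number deviated together from their group means (r = 0.273, 0.237 and 0.315, each above the limit of 0.1), so a pairing by number was accepted from the data alone. The main fit did not use this pairing, which entered only as an alternative, the fit blocked on replicate number. Alternatives were no background correction, normexp background correction on the regular probes with an offset of 50, median scaling, the authors' processed values and every probe kept. Further ones were a detection limit of 0.01 on all arrays, 1 probe per gene, eBayes with trend and robust, the replicate number as a block, and each array left out. The fit was tested on simulated data with independent arrays, so without a pairing by replicate number. It recovered 23.4%, 67.1% and 92.4% of changes of 0.5, 1 and 2 on the log2 scale. Of its calls there, 5.39% were false. R 4.3.3, limma 3.58.1, Python 3.11.15 and matplotlib 3.10.9 were used.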

Additional observations from a re-analysis of the deposited data

How the results depend on the processing

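PDGFRB kept its direction and its call in the 14 alternatives that tested it, and ARAF its sign and the lack of a call in 15. FGFR1 kept its direction in 14, with a log2 difference of 0.70 to 0.99 when 1 array was left out. Both PDGFRB and this FGFR1 probe passed the filter through their sorafenib arrays alone, and the alternatives refit the same arrays. A kept direction is therefore no further support for either rise. The stricter filter, detection p under 0.01 on all 6 arrays, removed PDGFRB and FGFR1, so 0 member probes were called there, as against 1 to 2 when 1 array was left out and 2 in the other alternatives. The cause there is the filter itself. The probes called over the array numbered 1853 with median scaling, 734 higher and 1119 lower, and 1463 to 2329 with 1 array left out (543 to 917 higher, 877 to 1412 lower), and 915 were higher with no filter. The cause of the change with median scaling was not tested. List members that fell numbered 12, and 7 to 12 with 1 array left out, and those that rose numbered 19, and 13 to 15. The sign of VEGFA turned in fits that left out 1 array (-0.087 without control replicate 1 and -0.05 without sorafenib replicate 3, in a range up to 0.14), as did that of KITLG (0.037 without sorafenib replicate 1, in a range from -0.13). Per list, the other kinases that fell numbered 4 without background correction, with trend and robust, and on the values the authors processed, and 1 with median scaling, and the cascade genes that rose numbered 1 with median scaling. With the replicate number as a block, 4065 probes were called, the 3 tested members kept their calls, 0 list or marker genes lost a call and 8 gained one. The gains were ESAM, RGS5, FGFR4, SERPINA1, FGB, COL2A1, PHLDA1 and 1 cascade gene, and list members that rose then numbered 21 and those that fell 14. A detection limit of 0.01 left 3 of 4 probes and 10 of 13 pairs. Signal over background limits 12 of the 13 probes.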
